A study of Hordeum vulgare with 12 samples.

Results

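The small RNAs described here are miR5048 and miR5049, a pair of miRNA families annotated in barley and other cereals. Their members are the sequenced small RNAs for which every matched entry of miRBase, the reference collection of miRNA genes, is a MIR5048 or a MIR5049 entry. They numbered 253 distinct sequences of the 6279 with a miRBase match, with 146 of 3812 in the root table and 206 of 4430 in the shoot table. MIR5048 accounted for 112 of them (74 in root, 95 in shoot, 57 in both), and MIR5049 for 141 (72 in root, 111 in shoot, 42 in both). Barley (Hordeum vulgare) plants of the line Rolap were sampled at day 23. Low-Pi plants grew in a soil with 8 mg P per kg, whereas for control plants that soil was supplied with a further 60 mg P per kg as KH2PO4. The 12 libraries formed 4 groups of 3, given below as root low Pi, root control, shoot low Pi and shoot control, with low-Pi replicates 4, 5 and 6 and control replicates 16, 17 and 18. Each replicate was 1 pot with 3 plants. The p-values therefore refer to variation between pots. The tests of counts estimated it partly from all families or sequences tested, and not from 3 pots alone. The sources do not state whether roots and shoots were taken from shared pots.

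A plant miRNA is cut from the hairpin of a longer transcript as a duplex. One strand, the guide, is loaded into an ARGONAUTE protein and directs it to mRNAs by near-complete pairing, while the opposite strand, the passenger, is mostly degraded. Inexact cutting gives variants of the guide with shifted ends, called isomiRs, and the base at the 5′ end of a strand is known to influence which ARGONAUTE receives it. Small RNAs of 24 nt are typical of another plant pathway, which silences transposons and repeats. Phosphate starvation is known to act on a small set of miRNAs that control uptake and transport of phosphate, and neither family described here is among the established members of that set.

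The sequences that carry the values below are shown 5′ to 3′ as deposited, with T for U and with bases 2 to 8, the seed, in capitals. The first set shows how the reads of miR5048 relate to its annotated forms. It holds the most abundant form, the next most abundant form, the annotated barley mature miRNA, the annotated wheat mature miRNA, and the most abundant sequence from the opposite arm of the hairpin.
Leading 5′ arm form of miR5048: tATATTTGcaggttttaggtct
Next 5′ arm form of miR5048: aTATTTGCaggttttaggtct
Barley mature miR5048: tATTTGCAggttttaggtctaa
Wheat mature miR5048: tTTGCAGGttttaggtctaagt
Leading 3′ arm form of miR5048: tTTAGACCtagacatgcaagt

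The second set holds the most abundant sequence of miR5049, which is 24 nt long and matched the MIR5049a precursor, and the most abundant annotated mature sequence, that of MIR5049e, with its variants shifted by 1 and by 2 bases.
MIR5049a precursor sequence: aAATACTTgttgttggggagaact
MIR5049e mature: aATTATTTaggtacagaggga
MIR5049e shifted by 1 base: aTTATTTAggtacagagggag
MIR5049e shifted by 2 bases: tTATTTAGgtacagagggagt

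The 12 libraries held between 7470998 and 17614581 reads, and 3 reads, taken as the limit of detection, correspond to 0.170 to 0.402 reads per 1000000 (RPM). Reads with a miRBase match made up 1.12% ± 0.157 of root low-Pi libraries (SD, n = 3 in each group), 1.74% ± 0.151 of root control, 5.41% ± 0.413 of shoot low-Pi and 6.08% ± 0.477 of shoot control libraries. Shoot low-Pi replicate 6 stood apart from its group, with a chi-square per degree of freedom of 89.7 and 107 against the other 2 libraries, where all other replicate pairs lay between 5.61 and 32.1. Main shoot results are therefore also given without it. No accepted marker miRNA of root or shoot was available, so the organ labels were not checked. In such whole-organ RNA, fewer cells of a type and less of an RNA per cell cannot be told apart.

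Both families were detected in every library, but at very different levels. MIR5048 held 193447 reads over the 12 libraries, between 4153 and 30706 in each, and MIR5049 held 1290, between 40 and 194 in each. Among 210 families miR5048 ranked 7th by mean RPM in root low Pi, 5th in root control and 7th in both shoot groups. The ranks of miR5049 were 33 in root low Pi, 29 in root control, 37 in shoot low Pi and 39 in shoot control. Few sequences made up most of each family. Of the members, 16 of miR5048 and 4 of miR5049 reached a mean of 1 RPM in at least 1 group, and these held 99.5% and 58.1% of the reads of their family. The largest mean among the remaining members was 0.903 RPM for miR5048 and 0.421 RPM for miR5049. Members seen as a lone read numbered 35 and 60, and 73 and 127 had under 10 reads in all.

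**Figure D1:**
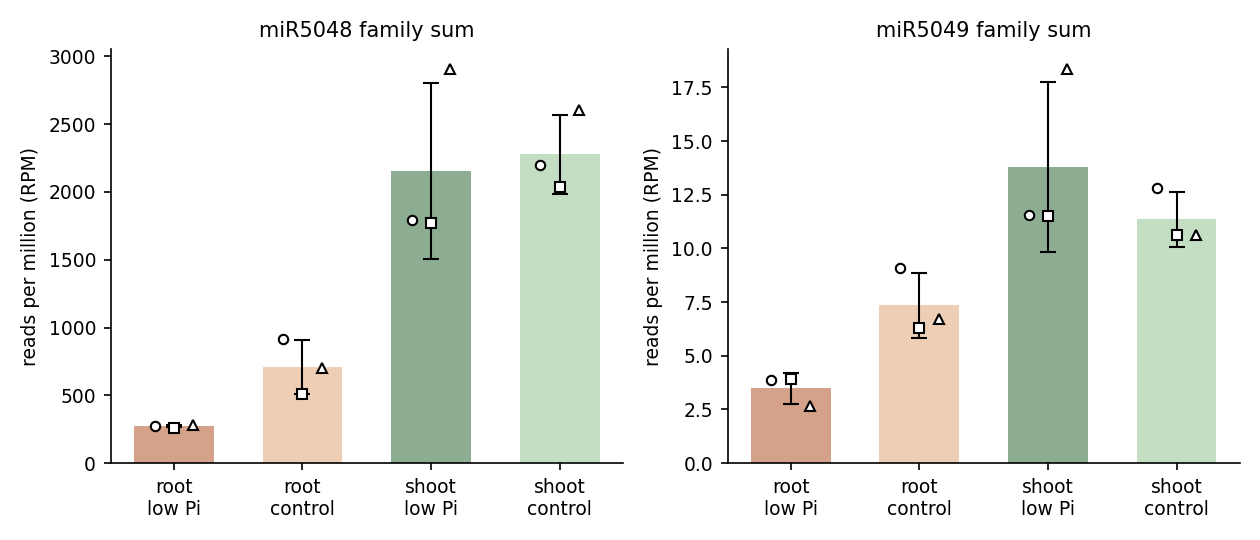
Summed reads of miR5048 (left) and miR5049 (right) in reads per 1000000 (RPM) for root low Pi, root control, shoot low Pi and shoot control. Bars are means of 3 libraries with SD, and symbols are single libraries (circle, square and triangle for the lowest to the highest replicate number of the group). For both families all 3 root low-Pi libraries lie below all 3 root control ones, and in shoot the groups overlap.

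The first comparison asked whether low Pi altered these families in root. The miR5048 sum was 277.1, 261.6 and 278.5 RPM in root low Pi and 915.3, 513.3 and 701.8 RPM in root control. The low-Pi libraries lay close together and all below the control ones, which differed among themselves by more than the low-Pi libraries did. The fitted log2 change was -1.38 ± 0.26 SE (adjusted p = 3.67e-06, edgeR), a fold of 2.61 lower in low Pi. The miR5049 sum was 3.87, 3.92 and 2.65 RPM in root low Pi and 9.10, 6.30 and 6.69 RPM in root control, again without overlap. Its log2 change was -1.09 ± 0.37 SE (adjusted p = 0.0144), resting on 40 to 104 reads in each library. Both families thus fell, as did 30.2% of the 53 families tested in root. The median family stood at -0.42, and relative to it miR5048 was at -0.96 and miR5049 at -0.66.

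The size of these decreases depended on the scale. With TMM factors, which set the bulk of sequences equal between libraries, the median family was at 0.25. On that scale miR5048 still fell (-0.76, adjusted p = 0.0131) and miR5049 did not pass the test (-0.45, adjusted p = 0.332). Of all miRBase-matched reads in a library, miR5048 held 2.28%, 2.78% and 2.30% in root low Pi and 4.79%, 3.18% and 4.12% in root control. These shares do not overlap. The shares of miR5049 were 0.0318%, 0.0417% and 0.0219% in root low Pi and 0.0476%, 0.0390% and 0.0393% in root control, which do overlap. The call of miR5049 ended without root low-Pi replicate 6 (log2 -0.92). Reads with a miRBase match made up 1.12% of root low-Pi and 1.74% of root control libraries, and the part that this difference had in these decreases was not tested.

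In shoot neither family passed the test. The miR5048 sum was 1794, 1770 and 2906 RPM in shoot low Pi and 2200, 2033 and 2602 RPM in shoot control. Low-Pi replicate 6 was the highest of the 6 libraries and the other low-Pi libraries were the lowest. The log2 change was -0.08 ± 0.24 SE (adjusted p = 0.951), or -0.35 ± 0.16 (adjusted p = 0.152) without replicate 6. The sign turned to 0.04 without low-Pi replicate 4 or 5 and to 0.03 without control replicate 18. For miR5049 the sums were 11.5, 11.5 and 18.4 RPM in shoot low Pi and 12.8, 10.6 and 10.6 RPM in shoot control. Replicate 6 was again the highest, and the others lay within the control range. The log2 change was 0.28 ± 0.27 SE (adjusted p = 0.648), and 0.02 (adjusted p = 0.974) without replicate 6. Of the 65 families tested in shoot, 4.62% were called in either direction, and the median was 0.04.

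The next comparison set root against shoot. Per library total, miR5048 was lower in root than in shoot under control Pi (log2 -1.68 ± 0.25 SE, adjusted p = 2.04e-06), where 66.7% of the 81 families tested were lower. Under low Pi it was lower in root by -2.99 ± 0.26 SE (adjusted p = 3.61e-10), where 71.6% of families were lower. The median family stood at -1.96 under control Pi and at -2.62 under low Pi. Relative to these medians, miR5048 was at 0.28 and at -0.36. The TMM factors brought the values to -0.17 (adjusted p = 0.53) under control Pi and -0.65 (adjusted p = 0.0266) under low Pi. The DESeq2 size factors turned the control value to 0.45, and totals of the miRBase table turned it to 0.09.

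For miR5049 the organ difference changed direction with the scale. Per library total it stood at -0.62 ± 0.32 SE in root against shoot under control Pi (adjusted p = 0.0727) and at -1.98 ± 0.33 under low Pi (adjusted p = 8.05e-06). With TMM factors the values were 0.90 (adjusted p = 0.0159) and 0.36 (adjusted p = 0.308), higher in root. Relative to the median family it was at 1.34 under control Pi and 0.64 under low Pi. Without shoot low-Pi replicate 6, which enters the shared estimate of the spread, the control value was -0.62 and called (adjusted p = 0.0444). Without root control replicate 16 it was -0.81 and also called.

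The difference between the low-Pi effect in root and that in shoot was tested as an interaction over all 12 libraries. It was -1.30 ± 0.34 SE for miR5048 (adjusted p = 0.0149) and -1.36 ± 0.46 for miR5049 (adjusted p = 0.0417), with 16.0% of 81 families called lower and a median of -0.67. The low-Pi libraries were lower than every control library in 3 of 3 root replicates of both families. Neither call held with TMM factors (-0.48, adjusted p = 0.567 for miR5048, and -0.54, adjusted p = 0.617 for miR5049). Without shoot low-Pi replicate 6 the values were -1.03 (adjusted p = 0.0248) for miR5048 and -1.11 (adjusted p = 0.0788) for miR5049. The call of miR5049 ended in 8 of the 12 fits that left out 1 library, at values between -1.46 and -1.11, namely those without shoot low-Pi replicate 6, any shoot control replicate, any root low-Pi replicate or root control replicate 16.

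Single sequences were then compared. In root 13 of the 253 members had enough reads to be tested, and 10 of them fell, where 30.9% of the 285 sequences tested in root were lower. The median of the 13 was -1.40, against -0.66 for all sequences. The leading 5′ arm form of miR5048 had 217, 209 and 226 RPM in root low Pi and 747, 405 and 567 RPM in root control. Its log2 change was -1.40 ± 0.27 SE (adjusted p = 0.00189). The next form, 1 base shorter at its 5′ end, had 35.5, 31.3 and 33.0 RPM in root low Pi and 101, 65.3 and 82.7 RPM in root control (log2 -1.32 ± 0.27 SE, adjusted p = 0.00271). In both forms the groups were separate and the low-Pi libraries lay within a narrow range. Among the less abundant forms, the wheat mature sequence fell by 1.46 on the log2 scale (adjusted p = 0.00961). The barley mature sequence stood at -0.97 (adjusted p = 0.0653).

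The largest decreases in root were those of 2 sequences that end 1 base before the leading form. The 21-nt tATATTTGcaggttttaggtc had 2.07, 2.38 and 1.39 RPM in root low Pi and 9.71, 6.18 and 6.16 RPM in root control (log2 -1.91 ± 0.35 SE, adjusted p = 0.00155). The 22-nt aTATATTTgcaggttttaggtc had 1.60, 1.48 and 1.53 RPM in root low Pi and 7.08, 4.70 and 3.88 RPM in root control (log2 -1.78 ± 0.36, adjusted p = 0.00239). The groups were separate in both. They were the 2 members still called with TMM factors, at -1.28 (adjusted p = 0.0275) and -1.16 (adjusted p = 0.0453), where 19 of all 285 sequences were lower. Of the other 5′ arm forms called in root, aTTTGCAGgttttaggtct stood at -1.46, tATTTGCAggttttaggtct at -1.28, tATTTGCAggttttaggtc at -1.51 and tTTGCAGGttttaggtct at -1.22. The number of members called was 6 without root low-Pi replicate 6, where 64 of all 300 sequences were lower. Leaving it out ended the calls of the last 3 and of the MIR5049a precursor sequence. The calls of tATTTGCAggttttaggtc and tTTGCAGGttttaggtct ended in 4 and 5 of the 6 fits that left out 1 root library.

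In shoot 20 members were tested, and edgeR called 0 of them. The unadjusted p of 1 member was under 0.05, and DESeq2 also called 0. Without replicate 6, edgeR called 0 of 21 tested members, and 6 had an unadjusted p under 0.05. The median of the tested members was -0.29 without replicate 6 and -0.03 with it. Over all 484 shoot sequences 10.5% were called. The leading form of miR5048 had 1443, 1390 and 2373 RPM in shoot low Pi and 1754, 1636 and 2102 RPM in shoot control (log2 -0.08 ± 0.25 SE, adjusted p = 0.889), and replicate 6 was the highest library. Without replicate 6 its value was -0.37 (adjusted p = 0.146).

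**Figure D2:**
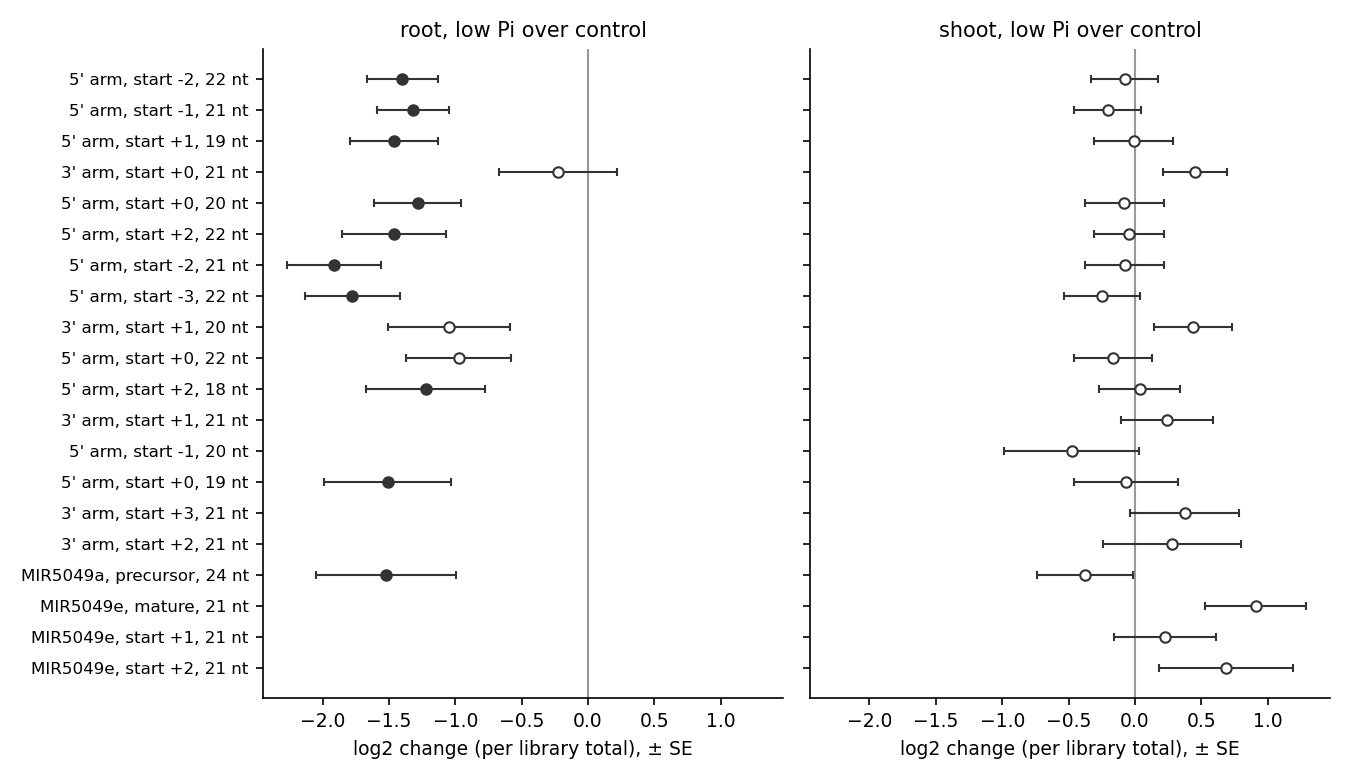
Log2 change per library total, low Pi over control, of the 20 members with a mean of at least 1 RPM, in root (left) and shoot (right), with bars of 1 SE. Filled symbols had an adjusted p under 0.05 and sequences without a symbol had too few reads to be tested. In root all 10 filled symbols lie between -1.91 and -1.22, of which 2 also passed with TMM factors, and in shoot no symbol is filled.

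Between organs, 16 of 20 tested members were lower in root than in shoot under control Pi, where 64.6% of all 545 sequences tested were lower, and all 20 under low Pi, where 78.5% were. With TMM factors these counts were 4 and 5, where 174 and 211 of all 545 sequences were lower. Of the 20 members 7 had too few reads to be tested in root and entered through their shoot reads, so the counts are a description and lend no support to an organ difference. The interaction was called for 4 of 20 members, all lower, against 7.71% of all sequences. The count was 2 with the replicate block, where 31 of all 545 sequences were lower. It was 0 without shoot control replicate 16 or without root low-Pi replicate 6, where 11 and 8 members had an unadjusted p under 0.05. The 4 were the leading form of miR5048, both sequences that end 1 base before it, and the MIR5049e mature sequence. The last is among the 7 and had 2, 9 and 4 reads in root low Pi. With TMM factors 0 of the 20 were called by edgeR, with 2 at an unadjusted p under 0.05, and DESeq2 with its own size factors also called 0.

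The arms of the miR5048 hairpin could be told apart because its overlapping sequences joined into 2 stretches. The 5′ arm spanned 38 nt and held 56 sequences and 97.8% of the reads. The 3′ arm spanned 44 nt and held 49 sequences and 2.24% of the reads. A further 7 sequences with 8 reads lay elsewhere. Of the 22 bases of the leading 5′ arm form, 18 formed Watson-Crick pairs with the 3′ arm stretch, 2 formed G·U pairs, 1 was mismatched and 1 had no partner.

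The arms were then compared under low Pi. In root the 3′ arm had 4.93, 1.93 and 3.32 RPM under low Pi and 3.06, 5.44 and 5.22 RPM in control, which overlap (log2 -0.42 ± 0.39 SE, adjusted p = 0.388, and 0.22 with TMM factors). In shoot it had 65.0, 68.0 and 55.8 RPM under low Pi and 52.8, 44.9 and 40.5 RPM in control. All low-Pi shoot libraries lay above all control ones, but the change did not pass the test (log2 0.45 ± 0.21 SE, adjusted p = 0.268). The 5′ arm stood at -1.39 in root (adjusted p = 3.39e-06) and -0.09 in shoot (adjusted p = 0.941). Whether the arms differed in their response to low Pi was compared by the share of miR5048 reads from the 3′ arm, which does not depend on the scale. It was 1.78%, 0.738% and 1.19% in root low Pi and 0.334%, 1.06% and 0.744% in root control (two-sided exact permutation p = 0.3). In shoot it was 3.62%, 3.85% and 1.92% under low Pi and 2.40%, 2.21% and 1.56% in control (exact permutation p = 0.3). The groups overlapped in both organs. In shoot the overlap came from replicate 6 alone, and low-Pi replicates 4 and 5 lay above all control libraries.

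Between organs the 3′ arm was lower in root per library total and with TMM factors. The difference of root from shoot was a log2 of -3.34 ± 0.36 SE under control Pi (adjusted p = 7.69e-09) and -4.22 ± 0.36 under low Pi (adjusted p = 1.22e-10). With TMM factors these values were -1.84 (adjusted p = 2.38e-05) and -1.90 (adjusted p = 1.22e-05). The 5′ arm stood at -1.66 and -2.96 per library total and at -0.15 and -0.62 with TMM factors. The 3′ arm share of miR5048 reads was 0.713% ± 0.364 in root against 2.05% ± 0.441 in shoot under control Pi (SD, n = 3), with no overlap (exact permutation p = 0.1, the smallest that 3 against 3 allow). Under low Pi it was 1.24% ± 0.523 in root against 3.13% ± 1.05 in shoot (SD, n = 3), also with no overlap (exact permutation p = 0.1). The adjusted value over the 16 shares of this kind was 0.229. The leading 3′ arm form showed the same order, with 2.47, 0.852 and 1.86 RPM in root low Pi against 33.7, 37.1 and 31.4 RPM in shoot low Pi. In control it had 1.57, 2.22 and 2.28 RPM in root against 28.4, 24.2 and 22.2 RPM in shoot.

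**Figure D3:**
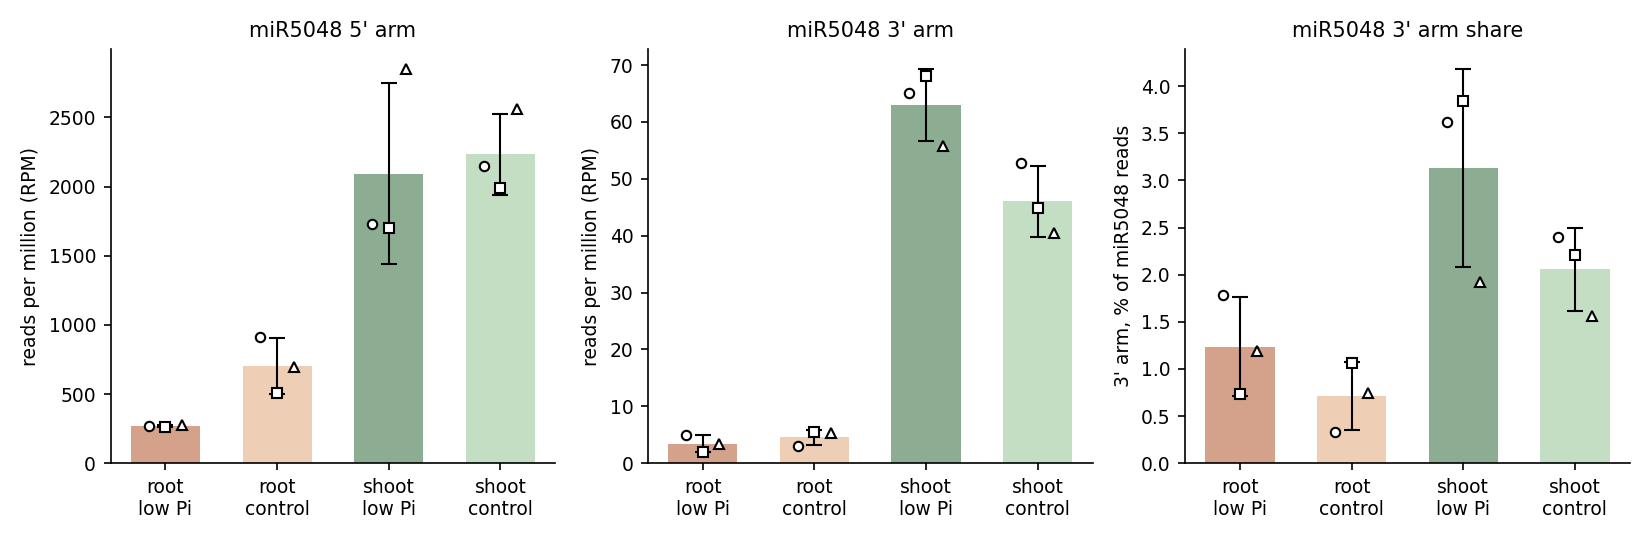
Reads per 1000000 (RPM) of the miR5048 5′ arm (left) and 3′ arm (middle), and the 3′ arm as a percentage of miR5048 reads (right), in the 4 groups. Bars are means of 3 libraries with SD, and symbols are single libraries as in the plot of family sums. The 3′ arm share lies between 0.334% and 1.78% in the 6 root libraries and between 1.56% and 3.85% in the 6 shoot libraries, with no overlap between organs within low Pi or within control.

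Most reads of miR5048 did not start where the annotated barley mature miRNA starts. Counting from its first base as 0, 156871 of the 5′ arm reads (83.0%) began at -2 and 22599 (11.95%) at -1, against 3282 (1.74%) at 0, 2660 (1.41%) at 1, 2188 (1.16%) at 2 and 1262 (0.667%) at -3. The share starting at -2 was between 80.5% and 84.1% in each of the 12 libraries. At their other end the reads were nearly uniform, as 97.0% of them, between 96.0% and 97.4% in a library, ended at position 19, which is 2 bases before the annotated barley end at 21. The 2 most common forms were therefore nested, differing at the 5′ end only. Exact copies of the barley and wheat mature sequences held 2280 reads, 1.18% of the family. Rows typed in the table as length variants of a mature sequence held 94.9%, and rows typed as precursor held 3.90%.

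The start of a form sets its seed and its first base. The seed ATATTTG of the leading form was shared by 6 sequences with 81.1% of the miR5048 reads. The seed TATTTGC of the next form held 11.7%, and ATTTGCA, that of the annotated barley mature sequence, held 1.70%. The leading form begins with U, the first base usual for guides of ARGONAUTE1, and the next form begins with A. The leading form held 79.8% ± 1.40 of miR5048 reads in root low Pi and 80.4% ± 1.36 in root control (SD, n = 3, exact permutation p = 0.6). In shoot it held 80.2% ± 1.57 under low Pi and 80.3% ± 0.545 in control (SD, n = 3, exact permutation p = 0.9). The differences were smaller than the spread between replicates in each organ. Over 32 shares of this kind in both families (leading sequence, 21 nt, 22 nt and precursor rows), 5 had groups without overlap, and the smallest adjusted p was 0.64. One of the 5 concerned miR5048, whose precursor rows, which include its 3′ arm reads, held 2.84% ± 0.586 in root low Pi against 4.67% ± 1.02 in shoot low Pi. The others concerned miR5049. In shoot its leading sequence, itself a precursor row, held 19.0% under low Pi against 30.6% in control. Its precursor rows, with the same reads among them, held 41.3% against 50.4%. Within low Pi its 21-nt sequences held 38.1% in root against 60.5% in shoot, and its precursor rows 57.7% against 41.3%. Starts on the 3′ arm were less uniform, with 54.8% of its reads beginning at the first base of the leading 3′ arm form and 35.3% at the next base.

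**Figure D4:**
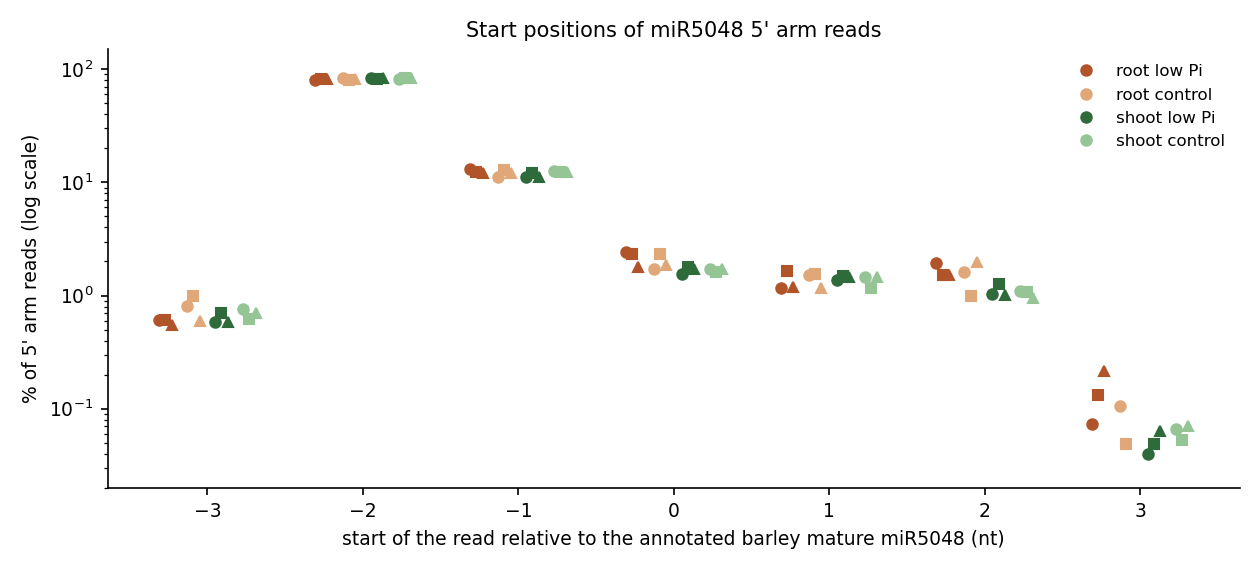
Percentage of miR5048 5′ arm reads (log axis) by the start of the read, in nt relative to the annotated barley mature miR5048. Each symbol is 1 of the 12 libraries, coloured by group, and values of 0 are not drawn. Reads starting at -2 make up between 80.5% and 84.1% in every library, and reads starting at the annotated position 0 average 1.74%.

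The reads of miR5049 were spread over several entries. MIR5049a held 562 reads (60 sequences), MIR5049e 488 (21), MIR5049b 99 (10), entries named MIR5049 from wheat or Brachypodium distachyon, a wild grass, 56 (17), MIR5049f 42 (12), MIR5049c 21 (12) and MIR5049d 13 (5). A further 9 reads matched both MIR5049b and MIR5049e. The leading entries differed in kind. Of the MIR5049a reads 8 were typed as mature or a variant of it, and the remainder as precursor, whereas 478 of the 488 MIR5049e reads were typed as mature or a variant, 210 of them exact. MIR5049d was at 0 reads in all 6 root libraries, where 3 reads correspond to 0.170 to 0.402 RPM, and its shoot means were 0.204 RPM under low Pi and 0.137 RPM in control. No seed was dominant: AATACTT, that of the MIR5049a precursor sequence, held 25.5% of the reads, and ATTATTT and TTATTTA, those of the MIR5049e mature sequence and the variant shifted by 1 base, held 17.3% and 11.9%.

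In root both leading entries had lower means under low Pi, and the calls changed when single libraries were left out. MIR5049a had 1.93, 1.65 and 1.72 RPM in root low Pi and 6.03, 2.10 and 3.48 RPM in root control. It fell by 1.15 on the log2 scale (SE 0.41, adjusted p = 0.0252), and stood at -0.55 with TMM factors, where it was not called. The call ended without any of the root low-Pi replicates (between -1.22 and -1.10) and without root control replicate 16 (-0.65). The 24-nt MIR5049a precursor sequence had 1.33, 0.568 and 0.464 RPM in root low Pi and 3.76, 1.24 and 1.61 RPM in root control, which overlap. It fell by 1.52 on the log2 scale (adjusted p = 0.0357). The call ended without root low-Pi replicate 5 (-1.32) or 6 (-1.25) and without root control replicate 16 (-0.85). MIR5049b and MIR5049e together had 1.53, 1.42 and 0.730 RPM in root low Pi and 1.40, 3.21 and 2.94 RPM in root control. Replicate 16, the highest control library for MIR5049a, was the lowest here, and the log2 value of -0.996 was not called (adjusted p = 0.0699). Without that replicate it was -1.32 and called (adjusted p = 0.00993).

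In shoot no entry passed the test. MIR5049b and MIR5049e together had 6.49, 7.56 and 9.56 RPM in shoot low Pi and 6.11, 4.25 and 4.79 RPM in shoot control (log2 0.63 ± 0.27 SE, adjusted p = 0.223). MIR5049a had 4.17, 3.20 and 7.00 RPM in shoot low Pi and 5.37, 5.47 and 4.98 RPM in shoot control (log2 -0.15 ± 0.32 SE, adjusted p = 0.922). The low-Pi libraries lay above all control ones in the first and on both sides of them in the second. For MIR5049a only low-Pi replicate 6 lay above the control libraries, and replicates 4 and 5 lay below them. The MIR5049e mature sequence had 2.12, 2.71 and 4.26 RPM in shoot low Pi and 1.49, 1.80 and 1.504 RPM in shoot control. These groups did not overlap, and the log2 value of 0.91 ± 0.38 SE was not called (adjusted p = 0.173). As a share of miR5049 reads the same sequence held 21.7% ± 2.92 in shoot low Pi and 14.2% ± 2.65 in shoot control (SD, n = 3). MIR5049a held 34.0% ± 5.45 in shoot low Pi and 46.8% ± 4.84 in shoot control, and 24-nt sequences held 24.7% ± 4.14 in shoot low Pi and 34.1% ± 4.64 in shoot control. The last 2 shares have reads in common, as the leading miR5049 sequence is 24 nt long and matched the MIR5049a precursor. Each of the 3 shares had an exact permutation p of 0.1, the smallest possible, and an adjusted p of 0.229 over the 16 shares. In root the exact permutation p of these 3 shares lay between 0.3 and 1.

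**Figure D5:**
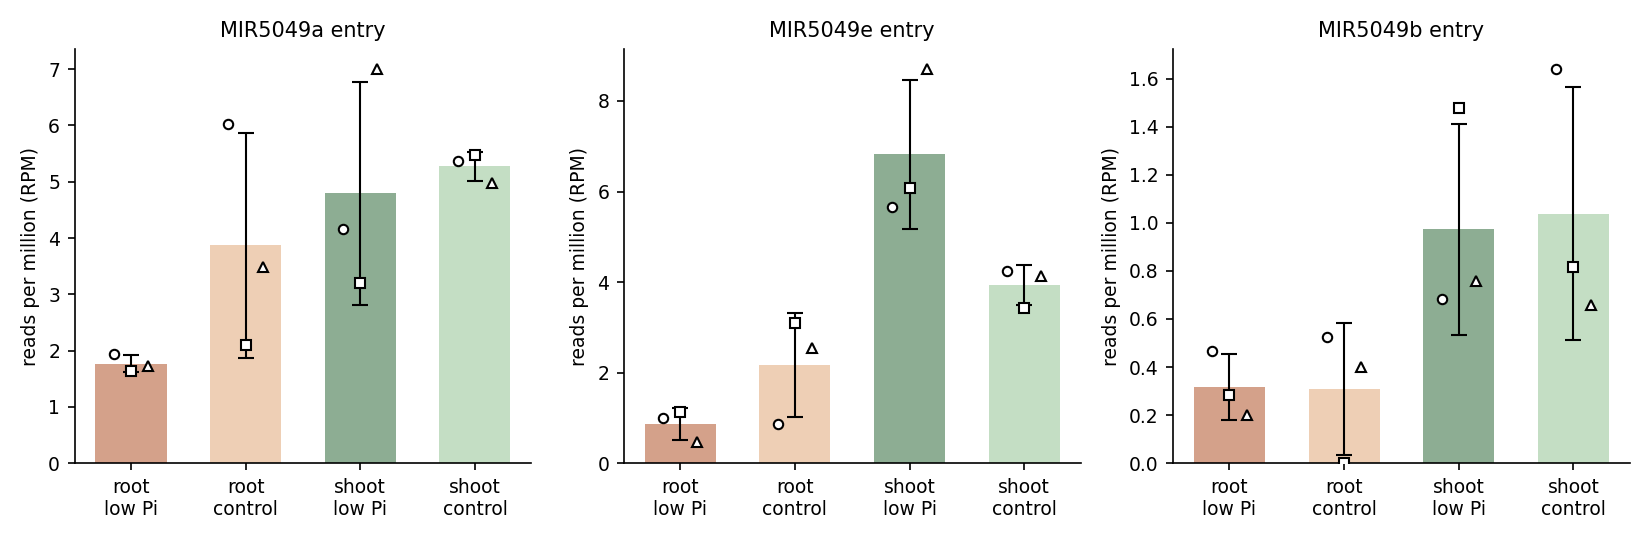
Reads per 1000000 (RPM) of the MIR5049a, MIR5049e and MIR5049b entries in root low Pi, root control, shoot low Pi and shoot control. Bars are means of 3 libraries with SD, and symbols are single libraries as in the plot of family sums. Each panel has its own axis from 0. All 3 shoot low-Pi libraries lie above all 3 shoot control ones for MIR5049e (5.67 to 8.71 against 3.43 to 4.25 RPM), but not for MIR5049a or MIR5049b.

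Between organs, the entries of miR5049 also differed by scale. MIR5049b and MIR5049e together stood at -2.66 in root against shoot under low Pi (adjusted p = 1.48e-06) and -1.03 under control Pi (adjusted p = 0.0182), and at -0.33 and 0.47 with TMM factors, where neither was called. The control call also ended without shoot control replicate 16 (-0.86) or root control replicate 16 (-0.71). MIR5049a stood at -1.43 under low Pi (adjusted p = 0.00191) and -0.42 under control Pi (adjusted p = 0.312), and at 0.90 (adjusted p = 0.0538) and 1.10 (adjusted p = 0.02) with TMM factors. Within low Pi, where no scale enters, MIR5049a held 52.3% ± 11.7 of miR5049 reads in root and 34.0% ± 5.45 in shoot, and the MIR5049e mature sequence held 8.83% ± 4.90 in root and 21.7% ± 2.92 in shoot (SD, n = 3, exact permutation p = 0.1 each, adjusted p = 0.229, no overlap). Within control the groups overlapped. There MIR5049a held 50.6% in root and 46.8% in shoot (exact permutation p = 0.7). The MIR5049e mature sequence, with the opposite order to low Pi, held 16.8% in root and 14.2% in shoot (exact permutation p = 0.8).

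One sequence feature was found in miR5049 and not in miR5048. The letters GAGGGAG, read on either strand, occur at the ends of Stowaway elements, short transposons common in grass genomes. They were found in 47 of the 141 miR5049 sequences (33.3%), in 0 of the 112 miR5048 sequences and in 200 of the 6026 other miRBase-matched sequences (3.32%). The share was 13.3% of MIR5049a sequences and 48.1% of the sequences of other MIR5049 entries, or 3.02% and 53.7% of their reads. Of the miR5049 sequences shown above, the shifted MIR5049e variants hold these letters, and the MIR5049a precursor sequence and the MIR5049e mature sequence do not. The letters were not set before the analysis. All these sequences are overlapping pieces of a few precursors, so the counts describe the tables and not separate loci. An origin of miR5049 in such elements was not tested.

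The pair was then set beside other families known mainly from grasses. Of a list of 24 such families, 19 were in the tables and 6 were tested in root. Of the 6, 1 was higher and 3 lower under low Pi, where 4 of all 53 families were higher and 16 lower. The median of the 6 was -0.68 against -0.42 for all families. Those lower were miR5051 (-1.79, adjusted p = 1.22e-06), miR1432 (-0.90, adjusted p = 0.0233) and miR5168 (-0.71, adjusted p = 0.0452), and miR5072 was higher (0.94, adjusted p = 0.0233). With TMM factors miR5051 (-1.12) and miR5072 (1.60) were still called, where 3 of all 53 families were lower and 13 higher. In shoot edgeR called 0 of 15 families of the list under low Pi, with a median of 0.21. The unadjusted p was under 0.05 for 2 of them, and DESeq2 called 2 higher (miR5051 and miR9773). Between organs 14 of 15 were lower in root under control Pi (66.7% of all families), with a median of -3.10 against -1.96 for all families. Under low Pi 14 of 15 were lower (71.6% of all families), with a median of -4.48 against -2.62. With TMM factors 6 were lower under control Pi, where 30 of all 81 families were lower (median -1.64 against -0.45 for all families). On that scale 11 were lower and 1 higher under low Pi, where 29 of the 81 were lower and 27 higher (median -2.21 against -0.30). Only 6 of the 15 had enough reads to be tested in root, and the others entered through their shoot reads. Examples under control Pi were miR444, which acts on MADS-box genes (-3.52), miR528 (-5.33), miR6196 (-6.11) and miR9863, which acts on Mla resistance genes in barley (-2.59). Nearer to the -1.68 of miR5048 were miR5051 (-1.65), miR5180 (-1.75), miR6213 (-1.81), miR9662 (-1.86) and miR1432 (-1.88), and miR5072 (-0.74) was near the -0.62 of miR5049. The interaction was lower for miR5051 (-2.90), miR6213 (-3.22), miR9662 (-1.13) and miR9773 (-2.42), and with TMM factors only miR5051 of these was called (-2.08).

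The families whose centred levels over the 12 libraries differed least from those of each member were conserved ones. Likeness was taken as the root mean square difference of log2(RPM + 1), centred on the mean of each family, among 42 families with a mean of at least 5 RPM. For miR5048 the nearest were miR168, which acts on ARGONAUTE1 (0.312), miR166, whose targets encode class III HD-ZIP factors (0.365), and miR172, which acts on AP2 factors (0.368), with a median of 0.841 over all compared. For miR5049 they were miR159, which acts on MYB factors (0.342), miR165 (0.449) and miR168 (0.493), with a median of 1.12. The pair differed from each other by 0.650, which made miR5049 the 11th nearest to miR5048 and miR5048 the 8th nearest to miR5049. This measure counts the size of the changes as well as their order. The correlation of the pair was 0.958. Of miR5049 with miR159, miR165 and miR168 it was lower (0.925, 0.762 and 0.933). Of miR5048 with miR168, miR166 and miR172 it was 0.981, 0.958 and 0.959. These are descriptions, as the libraries of an organ share its scale.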

How the data were processed

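Small RNAs from roots and shoots were sequenced, and reads of 18 to 25 nt were kept. The authors trimmed and collapsed reads in CLC Genomics Workbench (version not given in the sources used here) and kept sequences with a perfect match (0 mismatches) to miRBase release 22. The authors deposited the count of each sequence in each library and its RPM, reads per 1000000 kept reads. A further 12 deposited columns repeat these values and were not used, nor were tables of sequences without a miRBase match, which had been selected by their p-values, nor the authors' fold changes and p-values.

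Library totals were recovered as count over RPM. Counts were summed by family and tested with edgeR 4.0.16 in R 4.3.3 (quasi-likelihood, library size = total, filterByExpr at a minimum count of 10, Benjamini-Hochberg over all families or sequences, threshold 0.05), with each organ on its own 6 libraries and organ and interaction contrasts on all 12. Adjusted p-values without a named tool are from edgeR. TMM factors came from the sequence table. Low Pi over control and root over shoot are the directions of all log2 values. Shares were compared with two-sided exact permutation tests (smallest p 0.1) and adjusted over 32 shares, or over 16 chosen after seeing the data. Sums by arm and by entry were also chosen after seeing the data. Alternatives were TMM factors, totals of the miRBase table, no filter, DESeq2 1.42.0, leaving out each library, a replicate block, mature rows only and the most abundant sequence only. Scripts were tested on simulated data. Members and lists were chosen with earlier results of these data known. Sequences are named where their mean in a group reached 1 RPM, besides the 3 families most like each member family, and families of the grass list that were called. Arms are stretches of overlapping sequences. Members share precursors and are not independent. No genome was used, so no coordinates are given, and loci with identical sequences cannot be separated. Detection limits of 3 reads cover counting error only, since PCR copies of a molecule are counted separately.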

Additional observations from a re-analysis of the deposited data

Results flagged for a closer look

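The low-Pi effect differed between root and shoot for both families by the interaction test (edgeR, library totals), at -1.30 for miR5048 and -1.36 for miR5049. Among single sequences the same test passed for the leading miR5048 form tATATTTGcaggttttaggtct (-1.32), for tATATTTGcaggttttaggtc (-1.84), for aTATATTTgcaggttttaggtc (-1.53) and for the MIR5049e mature sequence aATTATTTaggtacagaggga (-2.68). The last had too few reads to be tested in root and entered through its shoot reads, so its value is a description. It had 0.133, 0.511 and 0.265 RPM (2, 9 and 4 reads) in root low Pi and 0.437, 1.48 and 1.47 RPM in root control, and in shoot its low-Pi libraries lay above the control ones. Leaving out 1 library at a time ended the call of tATATTTGcaggttttaggtct in 8 of 12 fits, of tATATTTGcaggttttaggtc in 2 (shoot control replicate 16 and root low-Pi replicate 6), of aTATATTTgcaggttttaggtc in 11 and of aATTATTTaggtacagaggga in 6. None of the 6 calls held with TMM factors. The part of the lower share of miRBase-matched reads in low-Pi root libraries (1.12% against 1.74% in control) was not tested.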

How the results depend on the processing

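The decrease of miR5048 in root kept its direction and its call under every alternative run. The miR5049 sums held 40 to 194 reads in a library. Several other results, those of miR5049 among them, moved with the scale, and the cause was not tested. In root miR5049 was at -0.45 with TMM factors, -0.41 with totals of the miRBase table and -0.80 with DESeq2 size factors, all uncalled. In shoot miR5048 was at 0.060 with miRBase totals, and miR5049 at -0.37 from its most abundant sequence.

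For root against shoot in control, miR5048 was at -0.17 with TMM factors, 0.089 with miRBase totals and 0.45 with DESeq2 size factors, and miR5049 at 0.90, 1.17 and 1.53, or -0.87 and called from mature rows only. In low Pi, miR5048 was at -0.32 with DESeq2 size factors, and miR5049 at 0.36 with TMM factors, 0.33 with miRBase totals and 0.68 with DESeq2 size factors. The interaction was not called with TMM factors, miRBase totals or DESeq2 size factors, at -0.48, -0.78 and -0.77 for miR5048 and -0.54, -0.84 and -0.84 for miR5049. For miR5049 it was also lost with no filter (-1.36), mature rows only (-1.51) and the most abundant sequence only (-1.15).

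Members called in root numbered 2 with TMM factors, 3 with miRBase totals and 2 with DESeq2 size factors, all lower. Over all sequences 19 of 285, 16 of 280 and 17 of 285 were lower. For root against shoot the members called numbered 4, 6 (3 higher and 3 lower) and 3 in control. There 174 of 545, 129 of 530 (with 201 higher) and 166 of 545 of all sequences were lower. In low Pi the members called numbered 5, 5 and 4, and 31 of 253 with no filter. There 211 of 545, 176 of 530, 203 of 545 and 721 of 6279 of all sequences were lower. With TMM factors MIR5049a was at 0.90 (root against shoot, low Pi) and MIR5049b and e at 0.47 (control). In control, tATATTTGcaggttttaggtct was at 0.093 with miRBase totals. The wheat mature tTTGCAGGttttaggtctaagt was at 0.61 with TMM factors, 0.87 with miRBase totals and 0.63 with DESeq2 size factors in control, and at 0.0092 with TMM factors in low Pi. In low Pi aAATACTTgttgttggggagaact was at 0.57, 0.52 and 0.54 with the same 3.

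No pairing of root and shoot libraries by replicate number was seen: the correlation of same-numbered deviations ran from -0.37 to 0.12, and 1 of 6 was best with its own number. With 3 libraries in each group these correlations cannot decide whether roots and shoots came from shared pots. With the replicate block miR5048 was at -1.71 in control, -2.94 in low Pi and -1.23 for the interaction, and miR5049 at -0.63, -1.96 and -1.32, the last not called, and the interaction was called for 2 members. With the replicate block and TMM factors, chosen after seeing the data, miR5048 was at -0.21 in control and -0.40 for the interaction. With both, miR5049 was at 0.87, 0.37 and -0.50. Members called numbered 4 and 3, where 179 and 205 of all 545 sequences were lower. With both, tTTGCAGGttttaggtctaagt was at 0.48 in control and 0.028 in low Pi, and aAATACTTgttgttggggagaact at 0.56 in low Pi.

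Leaving out 1 library at a time, miR5048 in shoot ran from -0.35 to 0.045. The range of miR5049 was -1.19 to -0.90 in root, -0.81 to -0.52 for root against shoot in control and -1.48 to -1.11 for the interaction. Members called in root ran from 6 without root low-Pi replicate 6 (64 of all 300 sequences lower) to 12 without root control replicate 17 (82 of 321 lower). Of the planned shares, those without overlap numbered 0 to 3 in root, 2 to 4 in shoot, and between organs 0 to 3 in control.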
